A study of Mus musculus with 46 samples.

Results

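The NF-kB family was followed through 10 genes, 5 that code the transcription factor subunits (Nfkb1, Rela, Rel, Nfkb2 and Relb) and 5 that code inhibitors of the IκB type (Nfkbia, Nfkbib, Nfkbie, Nfkbiz and Bcl3). They were taken by symbol, and all 10 were present among the 46264 gene symbols of the deposited table and passed the expression filter of every comparison.

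The series is bulk RNA-seq of 46 mouse libraries, from a study of intravenous immunoglobulin (IVIG, pooled antibody given into a vein) in a mouse model of mucous membrane pemphigoid, a blistering autoimmune disease. An experiment labelled Ics had 4 libraries each at 0 h (titled unstimulated), 3 h and 6 h (both titled stimul_Ics). The in vivo libraries were labelled Blood (5 IVIG, 5 PBS), Neutrophil (5 IVIG, 5 PBS), Monocyte (3 IVIG, 5 PBS) and Skin (3 IVIG, 3 PBS), where PBS is the saline given in place of IVIG. The labels give no strain, sex, age, antibody or dose and do not expand Ics, and the protocol speaks of neutrophils and monocytes derived from bone marrow, or of whole blood. The titles thus give Ics as the stimulus, but no label says what Ics is or names the cells of these libraries. Unstimulated cells were sampled at 0 h alone, and stimulation therefore cannot be told apart from hours spent in culture. Titles number the libraries of a group (m1 to m4 in Ics, a series and a number in vivo), but no label says that a number is an animal, and p-values reflect how far those libraries spread, which may be technical.

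NF-kB subunits bind DNA as dimers, and in resting cells IκB proteins hold most of them in the cytoplasm. In the canonical branch the IKK complex marks the IκB proteins for destruction and frees dimers of p50 (the processed product of Nfkb1) with RelA or c-Rel. In the alternative branch the kinase NIK leads to processing of the Nfkb2 product p100 to p52, which pairs with RelB. Several family genes, Nfkbia, Nfkb2, Relb and Rel among them, are textbook targets of NF-kB itself. In neutrophils the pathway is known for its control of cytokine genes and of survival.

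Promoters are shown for the members whose rise in the Ics experiment is described next, because they differ in whether they hold a κB motif, the recognition sequence of the family. The RefSeq promoter table (build GRCm38.p6) held 7 of the 10 members with 9 starts, and had no entry for Nfkb1, Relb and Nfkbiz. The κB motif was searched on both strands over the 250 bases before the start, and it stood in 2382 of 32851 promoters of the table (7.25%). Among the members it stood in those of Rel, Nfkb2 (all 3 starts), Nfkbia and Nfkbie. It was not matched in the windows of Rela, Nfkbib and Bcl3, which says only that these letters are not there. A match describes the sequence and was not tested for binding. The sequences run 5′ to 3′ on the strand of the gene, and capitals mark every base that lies in a match. For Nfkbia, Rel, Nfkbie and Rela the bases from the first annotated exon onward are left out. Nfkb2 is shown as 30 bases around a match of each start, which lie within the annotated gene and were not checked against its exons. The stretches lie at chr12:55492648-55492897 (minus strand, Nfkbia), chr11:23770971-23771219 (minus strand, Rel), chr17:45555450-45555699 (plus strand, Nfkbie), chr19:5637291-5637482 (plus strand, Rela), and chr19:46304688-46304717, chr19:46305449-46305478 and chr19:46305695-46305724 (plus strand, starts 1 to 3 of Nfkb2).
Nfkbia: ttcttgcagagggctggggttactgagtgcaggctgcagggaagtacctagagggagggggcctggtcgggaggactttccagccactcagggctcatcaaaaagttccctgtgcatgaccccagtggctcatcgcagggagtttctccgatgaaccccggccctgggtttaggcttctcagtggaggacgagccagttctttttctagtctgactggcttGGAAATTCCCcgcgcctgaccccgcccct
Rel: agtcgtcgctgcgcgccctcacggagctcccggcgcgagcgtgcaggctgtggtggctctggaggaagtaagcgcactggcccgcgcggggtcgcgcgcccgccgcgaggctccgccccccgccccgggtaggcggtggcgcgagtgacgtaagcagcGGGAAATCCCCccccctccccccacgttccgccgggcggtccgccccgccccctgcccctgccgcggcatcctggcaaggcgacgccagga
Nfkbie: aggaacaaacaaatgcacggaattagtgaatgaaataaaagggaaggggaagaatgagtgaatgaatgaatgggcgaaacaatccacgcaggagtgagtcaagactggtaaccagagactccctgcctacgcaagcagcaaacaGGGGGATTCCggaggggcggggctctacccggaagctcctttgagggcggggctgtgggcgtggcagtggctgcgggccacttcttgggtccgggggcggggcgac
Nfkb2 start 1: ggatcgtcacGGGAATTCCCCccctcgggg
Nfkb2 start 2: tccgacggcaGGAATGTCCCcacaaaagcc
Nfkb2 start 3: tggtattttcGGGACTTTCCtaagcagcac
Rela: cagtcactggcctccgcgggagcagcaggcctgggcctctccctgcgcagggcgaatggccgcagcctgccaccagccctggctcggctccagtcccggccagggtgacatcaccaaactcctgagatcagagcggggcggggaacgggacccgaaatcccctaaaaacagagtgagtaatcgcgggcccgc
The match in Nfkbia lies between bases 29 and 20 before the start, and that in Nfkbie between bases 106 and 97 before it. In Rel, matches on both strands overlap in 1 run between bases 92 and 82 before the start. The first start of Nfkb2 also has overlapping matches, between bases 39 and 29, and a further match between bases 11 and 2 that is not shown.

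Library totals were 18965431 to 43176537 estimated counts over all 46 libraries and 24827628 to 29502785 in the Ics experiment. By globin, keratin and S100a8 plus S100a9 levels, 9 of the 34 in vivo libraries went against their tissue label: 4 of 10 labelled Blood (1 in the neutrophil class, 1 in the monocyte class and 2 in the skin class), 2 of 10 labelled Neutrophil (blood class), 1 of 8 labelled Monocyte (neutrophil class) and 2 of 6 labelled Skin (blood class). The monocyte class is what is left when none of the other marks is present. No library was given another label, and results that rest on these libraries are given with and without them. The 12 Ics libraries held neutrophil transcripts (levels in CPM, read counts scaled to a common library total), where Ly6g had 145 to 379 CPM and the sum of S100a8 and S100a9 was 28660 to 49450 CPM, while the skin keratin genes Krt5, Krt14 and Krt1 were at 0 at all 3 times. The summed CPM of the 10 neutrophil markers ran from 95230 to 103100 at 0 h, 69040 to 81490 at 3 h and 57660 to 63470 at 6 h, and that of 8 monocyte markers from 757 to 857, 764 to 809 and 722 to 788. Ly6g alone had 353 to 379, 145 to 182 and 164.5 to 179 CPM at these times. Csf1r, 1 of the monocyte markers, had 139 to 178.5, 386 to 433 and 466.5 to 542 CPM, and thus rose while their sum changed little. Red cell markers (7 of 9 in the table) ran from 115 to 297, 17.2 to 49.8 and 8.18 to 19.6, and 5 dendritic cell markers from 60.2 to 79.2, 285 to 480 and 324 to 503. Their part in the results below was not tested, and in bulk RNA fewer cells of a type and less RNA per cell cannot be told apart.

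In the Ics experiment all 10 members rose at 3 h, and 8 of them fell again between 3 h and 6 h. The alternative subunit genes Relb and Nfkb2 rose most, 13.5-fold and 11.8-fold at 3 h, and Relb stood 13.95-fold above 0 h at 6 h. The inhibitor genes Nfkbie and Nfkbia rose 7.83-fold and 5.53-fold. Rela, which codes the main transactivating subunit, rose 1.90-fold at 3 h and stood 1.90-fold above 0 h at 6 h. Nfkbiz rose least, and its 6 h libraries overlapped with those of 0 h. A rise was called for 26.9% of the 14996 genes tested at 3 h against 0 h, for 29.6% at 6 h against 0 h, and a fall for 20.3% at 6 h against 3 h. The opposite calls made up 27.5% (fell at 3 h), 30.4% (fell at 6 h against 0 h) and 20.5% (rose at 6 h against 3 h). For the 10 members the median log2 change at 3 h against 0 h was 1.89, beside -0.06 over all genes tested. At 6 h against 0 h it was 1.15 beside -0.06, and at 6 h against 3 h -0.78 beside -0.03. Levels below are normalised read counts (CPM with TMM factors), and adjusted p-values are Benjamini-Hochberg values of edgeR's quasi-likelihood test over all genes tested.

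**Figure D1:**
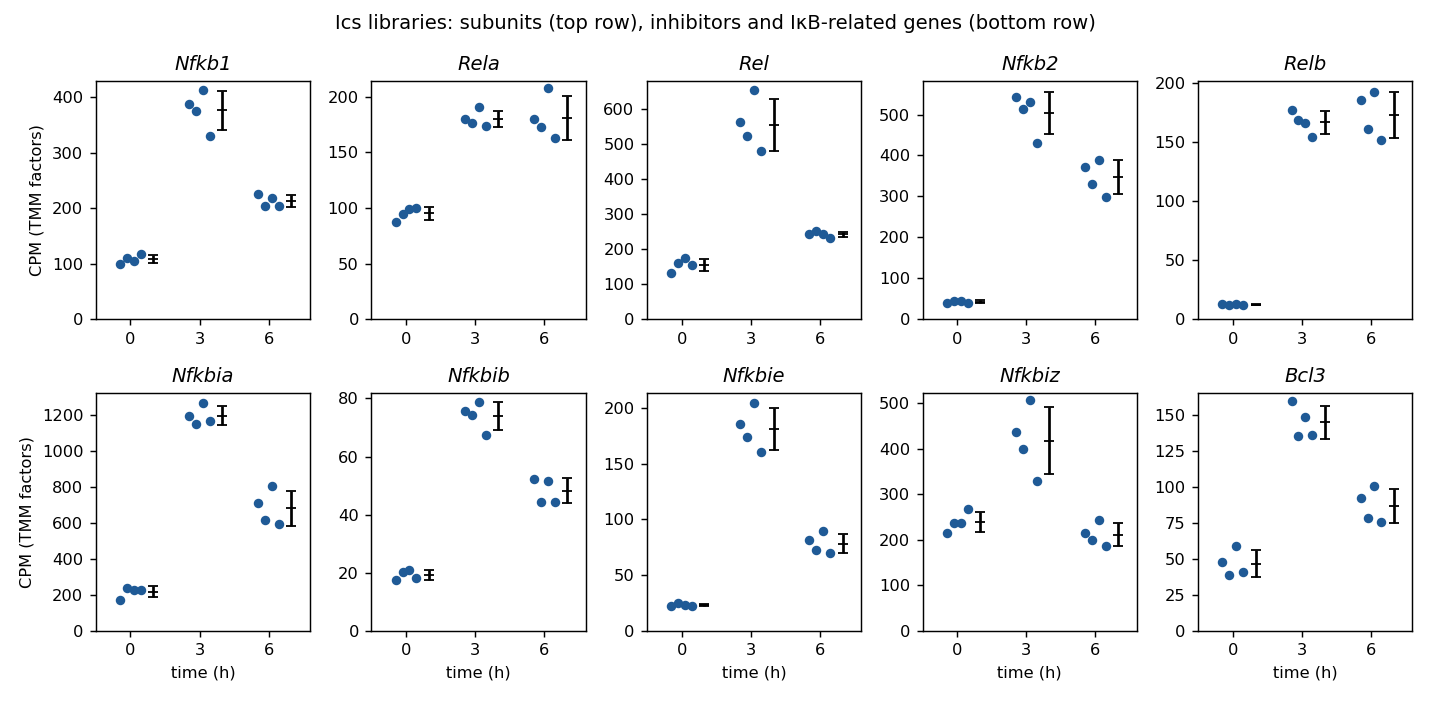
Levels of the 10 members in the 12 Ics libraries, as CPM with TMM factors (linear axes from 0) against time in h, 1 point per library, with the mean and SD of the 4 libraries beside each group. All 10 members stood higher in every 3 h library than in every 0 h library, and 8 members were lower in every 6 h library than in every 3 h library, while Rela and Relb overlapped between these times.

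Among the canonical subunits, Nfkb1 codes p105, which acts as an inhibitor until it is processed to p50. Nfkb1 (chromosome 3, 135584655 to 135691547, minus strand; coordinates here are GENCODE vM21 on GRCm38) had 99.96, 110, 105 and 117 CPM in the 4 libraries at 0 h, 388, 375, 414 and 330 CPM at 3 h, and 225, 204, 219 and 203 CPM at 6 h. The 3 groups did not overlap, with 3 h highest and 0 h lowest. Nfkb1 rose by 1.80 ± 0.073 on the log2 scale at 3 h (SE, 4 and 4 libraries; edgeR adjusted p = 5.53e-11) and by 0.98 ± 0.071 at 6 h against 0 h (edgeR adjusted p = 2.64e-08), and it fell by 0.83 between 3 h and 6 h (edgeR adjusted p = 4.85e-07).

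Rela (chromosome 19, 5637483 to 5648130, plus strand) codes p65, the subunit with the strong activation domain of the common p50 dimer. It had 87.5, 94.6, 98.8 and 99.9 CPM at 0 h, 180.0, 177, 191 and 174 CPM at 3 h, and 179.8, 173, 208 and 163 CPM at 6 h. Every later library was above every 0 h library, and the 3 h and 6 h libraries overlapped. Rela rose by 0.92 ± 0.072 at 3 h (edgeR adjusted p = 5.74e-08) and by 0.93 ± 0.072 at 6 h against 0 h (edgeR adjusted p = 5.02e-08). Between 3 h and 6 h the log2 difference was 0.0038 ± 0.071 (edgeR adjusted p = 0.973).

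Rel (chromosome 11, 23736847 to 23770970, minus strand) codes c-Rel, known for its part in cytokine genes of leukocytes. It had 132, 159, 175 and 154 CPM at 0 h, 563, 523, 654 and 480 CPM at 3 h, and 243, 252, 244 and 233 CPM at 6 h. The groups did not overlap, and the 6 h libraries lay closer to 0 h than to 3 h. Rel rose by 1.84 ± 0.095 at 3 h (edgeR adjusted p = 7.01e-10) and was still higher at 6 h, by 0.65 ± 0.093 (edgeR adjusted p = 2.93e-05). Between 3 h and 6 h it fell by 1.19 (edgeR adjusted p = 2.03e-07), the largest fall of the 5 subunit genes.

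Transcripts of the alternative subunit genes rose further than those of the canonical ones. Nfkb2 (chromosome 19, 46304320 to 46312385, plus strand) codes p100, which also holds dimers back in the manner of an IκB. It had 39.1, 45.4, 45.3 and 40.6 CPM at 0 h, 544, 513, 532 and 429 CPM at 3 h, and 373, 329, 389 and 298 CPM at 6 h. No 2 of the times overlapped, and the lowest 6 h library stood far above the highest 0 h library. Nfkb2 rose by 3.57 ± 0.101 at 3 h (edgeR adjusted p = 3.56e-12) and by 3.03 ± 0.099 at 6 h against 0 h (edgeR adjusted p = 1.05e-11), and it fell by 0.54 between 3 h and 6 h (edgeR adjusted p = 0.000263).

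Relb (chromosome 7, 19606217 to 19629438, minus strand) codes the partner of p52. It had 12.75, 12.05, 12.56 and 12.17 CPM at 0 h, 177, 169, 166 and 154 CPM at 3 h, and 185, 162, 193 and 152 CPM at 6 h. The 0 h libraries were nearly level, all later libraries were above them, and 3 h and 6 h overlapped. Relb rose by 3.75 ± 0.083 at 3 h (edgeR adjusted p = 7.89e-13) and by 3.80 ± 0.083 at 6 h against 0 h (edgeR adjusted p = 7.68e-13). From 3 h to 6 h it was at 0.05 ± 0.072 (edgeR adjusted p = 0.601), so Relb and Rela were the members for which no change between these times was called.

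Among the inhibitors, Nfkbia (chromosome 12, 55489410 to 55492647, minus strand) codes IκBα, the classical feedback inhibitor that NF-kB induces within its own response, and its promoter stretch is printed above. It had 172, 237, 228 and 229 CPM at 0 h, 1197, 1150, 1271 and 1168 CPM at 3 h, and 710, 619, 805 and 593 CPM at 6 h. The groups did not overlap, and the first 0 h library lay below the other 3. Nfkbia rose by 2.47 ± 0.110 at 3 h (edgeR adjusted p = 1.45e-10) and by 1.65 ± 0.107 at 6 h against 0 h (edgeR adjusted p = 7.45e-09), and it fell by 0.81 between 3 h and 6 h (edgeR adjusted p = 2.34e-05). Without the first 0 h library the rise at 3 h was 2.37.

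Nfkbie (chromosome 17, 45555703 to 45563169, plus strand) codes IκBε, a slower feedback inhibitor. It had 22.7, 24.9, 22.7 and 22.1 CPM at 0 h, 186, 174, 205 and 160 CPM at 3 h, and 81.3, 72.4, 89.3 and 70.2 CPM at 6 h. The 3 groups were well apart. Nfkbie rose by 2.97 ± 0.092 at 3 h (edgeR adjusted p = 6.06e-12) and was higher by 1.76 ± 0.090 at 6 h against 0 h (edgeR adjusted p = 6.83e-10). Its fall between 3 h and 6 h, by 1.21, was the largest of all 10 members (edgeR adjusted p = 8.25e-08).

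Nfkbib (chromosome 7, 28758251 to 28767512, minus strand) codes IκBβ, the third of the classical cytoplasmic inhibitors. It had 17.5, 20.3, 20.9 and 18.2 CPM at 0 h, 75.7, 74.2, 78.9 and 67.3 CPM at 3 h, and 52.4, 44.5, 51.5 and 44.4 CPM at 6 h. The groups did not overlap. Nfkbib rose by 1.95 ± 0.083 at 3 h (edgeR adjusted p = 9.71e-11) and by 1.33 ± 0.082 at 6 h against 0 h (edgeR adjusted p = 4.90e-09), and it fell by 0.62 between 3 h and 6 h (edgeR adjusted p = 2.29e-05).

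Nfkbiz and Bcl3 code the nuclear IκB proteins IκBζ and BCL3, which bind p50 or p52 on DNA and can help as well as hold back transcription. Nfkbiz (chromosome 16, 55811375 to 55838899, minus strand) had 214, 237, 236 and 268 CPM at 0 h, 437, 399, 507 and 329 CPM at 3 h, and 215, 199, 245 and 186 CPM at 6 h. All 3 h libraries were above all others, while 0 h and 6 h overlapped. Nfkbiz rose by 0.81 ± 0.117 at 3 h (edgeR adjusted p = 3.61e-05), fell by 0.99 between 3 h and 6 h (edgeR adjusted p = 1.12e-05), and at 6 h against 0 h was at -0.18 ± 0.117, which did not pass (edgeR adjusted p = 0.205).

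Bcl3 (chromosome 7, 19808462 to 19822770, minus strand) had 47.6, 38.6, 59.4 and 41.03 CPM at 0 h, 160, 136, 149 and 136 CPM at 3 h, and 92.2, 78.3, 101 and 76.0 CPM at 6 h. The 3 groups did not overlap. Bcl3 rose by 1.64 ± 0.125 at 3 h (edgeR adjusted p = 4.80e-08) and by 0.90 ± 0.124 at 6 h against 0 h (edgeR adjusted p = 2.12e-05), and it fell by 0.74 between 3 h and 6 h (edgeR adjusted p = 0.000213).

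In all, 10 of 10 members passed the test upward at 3 h against 0 h, 9 of 10 at 6 h against 0 h, and 8 of 10 passed it downward at 6 h against 3 h. By libraries alone, 10 members had every 3 h library above every 0 h library, which held for 24.8% of all genes tested. Every 6 h library was above every 0 h library for 9 members (27.7% of all genes), and every 6 h library was below every 3 h library for 8 members (18.3% of all genes).

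**Figure D2:**
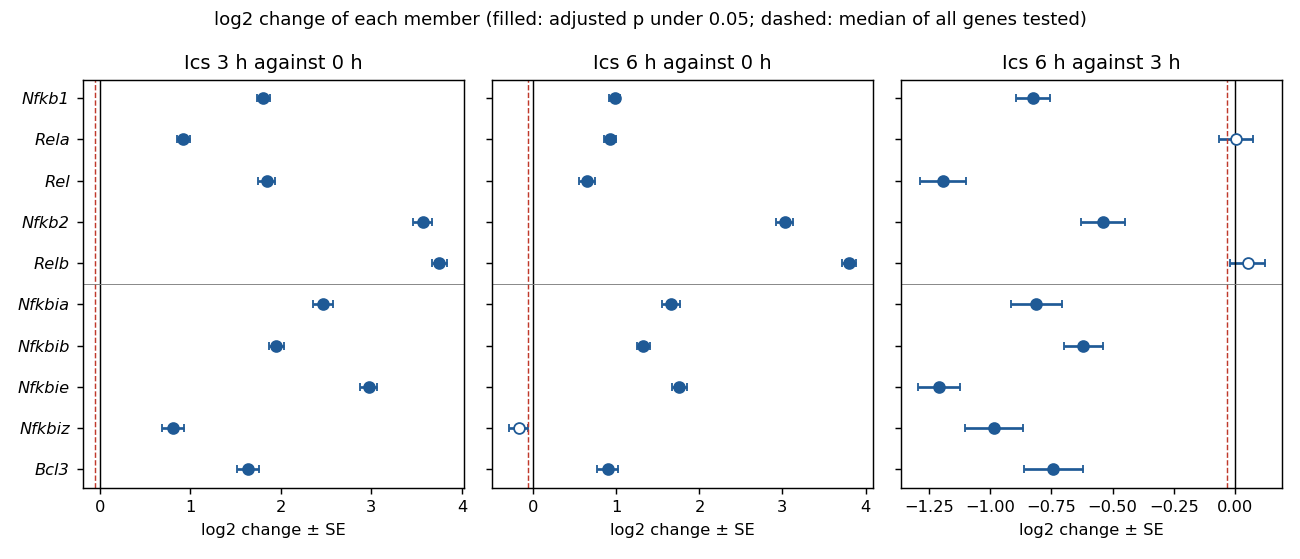
Log2 change with its SE for each member (rows, subunits above the grey line and inhibitors below it) in the 3 Ics comparisons, from edgeR over 4 and 4 libraries. Filled points passed an adjusted p of 0.05 and the dashed line is the median of all genes tested. At 3 h against 0 h the points lie between 0.81 and 3.75, and at 6 h against 3 h between -1.21 and 0.05.

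To compare the genes with each other, levels were divided by the length of the longest principal transcript, from 1.578 kb for Nfkbia to 7.466 kb for Rel. Per kb, Rela was the highest of the 5 subunit genes at 0 h, at 35.1 CPM per kb, ahead of Nfkb1 at 26.2 and Rel at 20.7, with Nfkb2 at 13.6 and Relb at 5.61. At 3 h Nfkb2 led at 161 CPM per kb, followed by Nfkb1 at 91.5, Relb at 75.5, Rel at 74.3 and Rela at 66.4. At 6 h Nfkb2 was at 111, Relb at 78.2, Rela at 66.6, Nfkb1 at 51.6 and Rel at 32.5. This order rests on the lengths used, as do the shares below. In CPM alone, Rel at 155 and Nfkb1 at 108 stood above Rela at 95.2 at 0 h. At 3 h Rel, at 555 CPM, stood above Nfkb2, at 504 CPM.

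As shares of the summed level per length of the 5 subunit genes, Rela made up 34.7 ± 0.58% at 0 h, 14.2 ± 0.83% at 3 h and 19.6 ± 0.79% at 6 h (SD, n = 4 at each time). Nfkb2 made up 13.4 ± 0.73%, 34.3 ± 1.2% and 32.5 ± 0.98% at these times. The share of Relb was 5.56 ± 0.46%, 16.2 ± 0.82% and 23.0 ± 0.54%. Each gene of the alternative pair thus held a larger share at both later times than at 0 h. For each of the 2 genes the libraries of 0 h lay below those of 3 h and 6 h. Rel held 20.5 ± 1.4%, 15.8 ± 1.1% and 9.63 ± 0.82%, and Nfkb1 25.9 ± 1.3%, 19.5 ± 0.33% and 15.3 ± 0.83%, both with a lower share at each later time although their own levels had risen.

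Among the 5 inhibitor genes Nfkbia held the largest share per length, 57.2 ± 3.0% at 0 h, 72.4 ± 1.6% at 3 h and 73.7 ± 0.48% at 6 h. Nfkbiz had 24.3 ± 1.7%, 9.64 ± 1.2% and 8.78 ± 0.22%. Bcl3 had 10.6 ± 2.3%, 7.48 ± 0.44% and 8.01 ± 0.10%. Nfkbie had 4.00 ± 0.44%, 7.08 ± 0.34% and 5.50 ± 0.12%, and Nfkbib stayed between 3.29 and 4.20% in all 12 libraries.

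**Figure D3:**
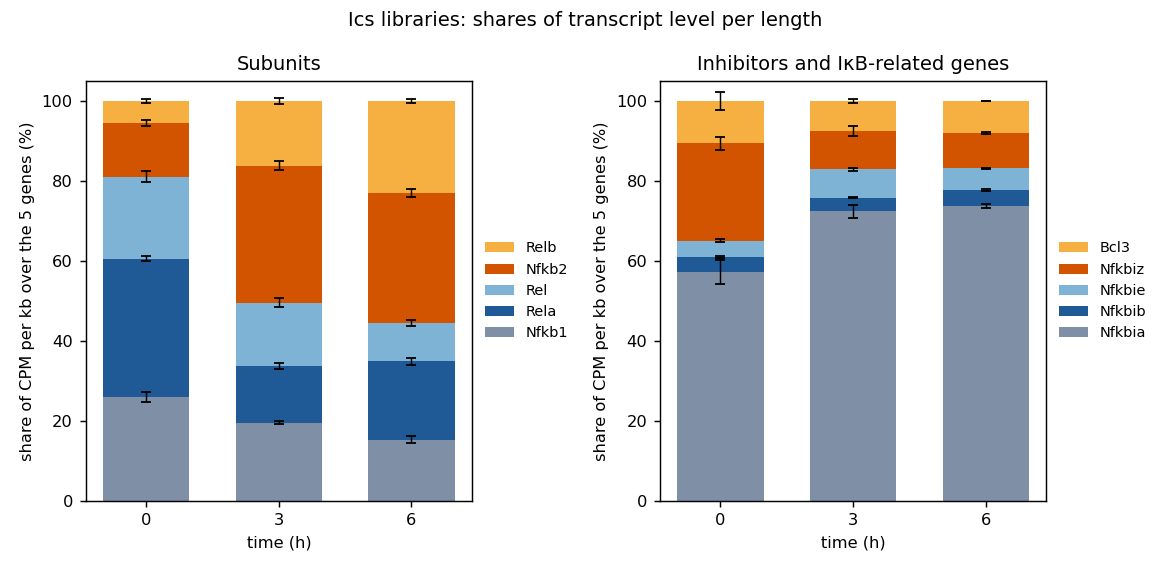
Stacked bars of the share of each gene in the summed level per length (CPM per kb, in %) of the 5 subunit genes (left) and of the 5 inhibitor genes (right) at 0, 3 and 6 h, mean of 4 libraries with the SD at the top of each segment. Nfkb2 and Relb take larger segments at 3 h and 6 h than at 0 h, and Nfkbia takes over 70% of the inhibitor bar at both later times.

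Ratios within a library do not depend on the scaling between libraries. They were taken on the CPM scale, not per length, and so compare times and not the levels of the 2 genes. Nfkb2 over Nfkb1 was 0.40 ± 0.037 at 0 h, 1.34 ± 0.056 at 3 h and 1.63 ± 0.13 at 6 h (SD, n = 4). Relb over Rela was 0.131 ± 0.010, 0.925 ± 0.054 and 0.956 ± 0.050. The alternative gene gained on its canonical counterpart in both pairs by 3 h, with no overlap between 0 h and the later times. Rel over Rela was 1.62 ± 0.12 at 0 h, 3.07 ± 0.29 at 3 h and 1.35 ± 0.13 at 6 h, highest at 3 h. Nfkbia over Rela was 2.27 ± 0.23, 6.63 ± 0.088 and 3.76 ± 0.18, with the 3 times apart.

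The genes whose log2 levels over the 12 Ics libraries were most like those of a member were picked by Pearson correlation among 8302 genes, as a description: the libraries are 3 times of 4, so r mostly follows the 3 time means. For Nfkbia these were Tnfaip3 (r = 0.998), which codes the ubiquitin-editing inhibitor A20, Tnf (r = 0.996) and Tns3 (r = 0.996). For Nfkb2 they were Sod2, Spp1 and Nab1 (r = 0.998 each), and for Relb they included Ctsz and Dtx4 (r = 0.998 each). For Nfkb1 they were Icosl (r = 0.998), Gch1 and Casp4 (r = 0.996 each), and for Rela Ier3 (r = 0.997), Gm49339 (r = 0.996) and Gm15832 (r = 0.995). Nfkbib was nearest to Cd14, Irak3 and Irf5 (r = 0.997 each), Nfkbie to Pik3ap1 (r = 0.999), Gch1 and Snx10 (r = 0.998 each), and Rel to Rab8b (r = 0.995), Rab11fip1 and Kdm6b (r = 0.993 each). Bcl3 was nearest to Slc2a6 (r = 0.986), Wdr37 (r = 0.983) and Klf10 (r = 0.982). Nfkbiz had the loosest neighbours, Lcp2 (r = 0.981), Ccdc116 (r = 0.973) and Hip1r (r = 0.965), and within the family its r ran from 0.319 with Relb to 0.833 with Rel, while the other 9 members correlated with each other between 0.754 and 0.995.

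The rest of the pathway was read from 5 gene lists. The counts of each list stand beside these shares of all genes tested. At 3 h against 0 h 26.9% rose and 27.5% fell. At 6 h against 0 h 29.6% rose and 30.4% fell, and at 6 h against 3 h 20.5% rose and 20.3% fell. Of 30 genes of the IKK complex and the adaptors and kinases upstream of it, 16 rose and 6 fell at 3 h against 0 h, with a median log2 change of 0.38. At 6 h against 0 h 19 rose and 4 fell, with a median of 0.51, and at 6 h against 3 h 11 rose and 12 fell, with a median of -0.05. Traf3, an adaptor that keeps NIK low, rose by 1.70 ± 0.064 at 3 h, with a mean of 91.6 ± 4.7 CPM at 0 h, 298 ± 18 CPM at 3 h and 225 ± 15 CPM at 6 h (SD, n = 4). Birc3, a ubiquitin ligase of the same complex, rose by 1.88 ± 0.075, with 218 ± 5.6, 803 ± 87 and 529 ± 38 CPM. Both were highest at 3 h. Map3k8, the kinase Tpl2, rose by 4.19 ± 0.169, with 10.4 ± 2.5, 189 ± 24 and 75.5 ± 12 CPM, and the adaptor gene Traf1 rose by 5.80 ± 0.248, with 1.44 ± 0.71, 80.2 ± 7.7 and 50.9 ± 12 CPM. Card9, an adaptor of antifungal signalling, fell by 1.42 at 3 h, with 173 ± 6.2, 64.7 ± 1.7 and 104 ± 9.8 CPM. Ripk1, the kinase next to TNF receptor 1, fell by 0.42 at 3 h and was higher at 6 h than at 0 h by 0.29 ± 0.066 (edgeR adjusted p = 0.00165).

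Of 20 brakes and deubiquitinases 13 rose and 6 fell at 3 h against 0 h (median 0.83). At 6 h against 0 h 14 rose and 5 fell (median 0.51), and at 6 h against 3 h 2 rose and 10 fell (median -0.22). Tnfaip3 rose by 3.52 ± 0.143 at 3 h, with 63.3 ± 12 CPM at 0 h, 728 ± 101 CPM at 3 h and 306 ± 33 CPM at 6 h. Tnip1, a partner of A20, rose by 3.39 ± 0.085, with 46.4 ± 2.9, 488 ± 34 and 298 ± 32 CPM. Irak3, an inhibitory member of the IRAK kinases, rose by 2.47 ± 0.073 and N4bp1 by 2.36 ± 0.059. These 4 genes had their highest mean at 3 h, as 8 of the 10 members did. Traf3ip3 fell by 1.20 and Commd1, which takes part in the removal of RelA from chromatin, by 1.00 at 3 h.

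Of 7 NF-kB activating receptors of the TNF receptor family, most of them known for the alternative branch, 4 rose and 1 fell at 3 h against 0 h (median 0.40), 3 rose and 2 fell at 6 h against 0 h (median 0.07), and 1 rose and 3 fell at 6 h against 3 h (median -0.68). Tnfrsf1b, which codes TNF receptor 2, rose by 4.16 ± 0.116, with 102 ± 9.3 CPM at 0 h, 1821 ± 216 CPM at 3 h and 1033 ± 144 CPM at 6 h. Ltbr, the lymphotoxin β receptor, rose by 0.40 ± 0.118 at 3 h, with 65.5 ± 10, 86.4 ± 13 and 94.9 ± 9.7 CPM. Tnfrsf1b was the abundant one of the 2, and the remaining receptors that rose were at low levels. Tnfrsf12a rose by 1.67 ± 0.209 to 3.90 ± 0.36 CPM and Cd40 by 0.97 ± 0.237 to 4.75 ± 1.4 CPM at 3 h. Tnfrsf13c, the BAFF receptor, fell by 0.69 at 3 h and had 1.99 ± 0.36 CPM at 0 h.

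Of 34 textbook target genes of NF-kB 30 were tested, and 26 rose and 4 fell at 3 h against 0 h (median 3.32). At 6 h against 0 h 24 rose and 4 fell (median 2.61), and at 6 h against 3 h 3 rose and 21 fell (median -0.80). Marcksl1 rose by 3.46 ± 0.075 at 3 h, with 147 ± 5.4 CPM at 0 h, 1621 ± 112 CPM at 3 h and 887 ± 82 CPM at 6 h. Il1rn, the interleukin 1 receptor antagonist, rose by 2.54 ± 0.072, the mitochondrial superoxide dismutase gene Sod2 by 4.82 ± 0.139 and the adhesion molecule gene Icam1 by 6.15 ± 0.189. All 4 were lower at 6 h than at 3 h. The 4 genes that fell at 3 h were Sele (by 2.46), Ptgs2 (by 1.11), Plaur (by 0.47) and Lcn2 (by 0.23), where Plaur and Lcn2 were named after their values were seen.

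Of 10 cofactors and kinases that act on NF-kB in the nucleus 9 were in the table, of which 3 rose and 2 fell at 3 h against 0 h (median -0.01). These counts are close to the shares of all genes tested, 26.9% up and 27.5% down. At 6 h against 0 h 4 rose and 1 fell (median 0.10), and at 6 h against 3 h 2 rose and 1 fell (median -0.09). Brd2, a bromodomain reader of acetylated histones, rose by 0.87 ± 0.075 at 3 h, and the acetyltransferase gene Crebbp by 0.50 ± 0.081. Hdac3 fell by 0.38 and Rps6ka5, the kinase MSK1, by 0.30.

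Set against the 34 in vivo libraries, 8 of the 10 members were higher in every 3 h Ics library than in any in vivo library, on the scale of CPM over non-globin counts. This held for 12.4% of the 14992 non-globin genes tested, and, without the libraries against their label, for the same count of 8 members and 13.4% of genes. The exceptions were Nfkbia and Nfkbiz. Relb had 144 to 169 CPM in the 3 h libraries, against a highest in vivo value of 61.9 CPM, and Nfkb2 had 399 to 517 CPM against 99.1 CPM. Both in vivo maxima come from libraries with blood markers under another label, and the highest values in the 25 libraries whose markers match were 57.4 CPM for Relb and 75.0 CPM for Nfkb2. At 0 h the picture differed by gene. Rel, at 147 to 189 CPM, was above all 34 in vivo libraries already, whose highest value was 134 CPM. How many of all genes are so at 0 h was not counted, so this cannot be called particular to Rel. Nfkb2 at 43.8 to 49.7 CPM and Nfkbib at 19.6 to 22.6 CPM had 22 and 28 in vivo libraries above their lowest 0 h library. Nfkbia at 3 h had 1048 to 1160 CPM, and 1 in vivo library, labelled Neutrophil IVIG, stood higher, at 1204 CPM. The labels do not say that the experiments were run side by side, so this is a description of levels with no test.

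Across the in vivo libraries the clearest differences were in the inhibitors Nfkbia and Nfkbiz, which were higher in Neutrophil libraries than in Monocyte and Skin libraries. Levels here are CPM over non-globin counts, since globin held 89.2 to 93.9% of the counts in the 6 Blood libraries whose markers matched their label. Nfkbia had a lowest value of 55.5, a median of 650 and a highest of 1204 CPM in the 10 Neutrophil libraries, 15.1, 116 and 703 CPM in the 8 Monocyte libraries, and 96.9, 118 and 180 CPM in the 6 Skin libraries. The ranges overlap as labelled. In the libraries whose markers match their label it had 288, 714 and 1204 CPM in 8 Neutrophil libraries, 15.1, 82.4 and 351 CPM in 7 Monocyte libraries and 96.9, 135 and 180 CPM in 4 Skin libraries, and Neutrophil then overlapped with Monocyte but not with Skin. In the 10 Blood libraries Nfkbia had 88.7, 152 and 944 CPM, and in the 6 with blood markers 88.7, 152 and 170 CPM.

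**Figure D4:**
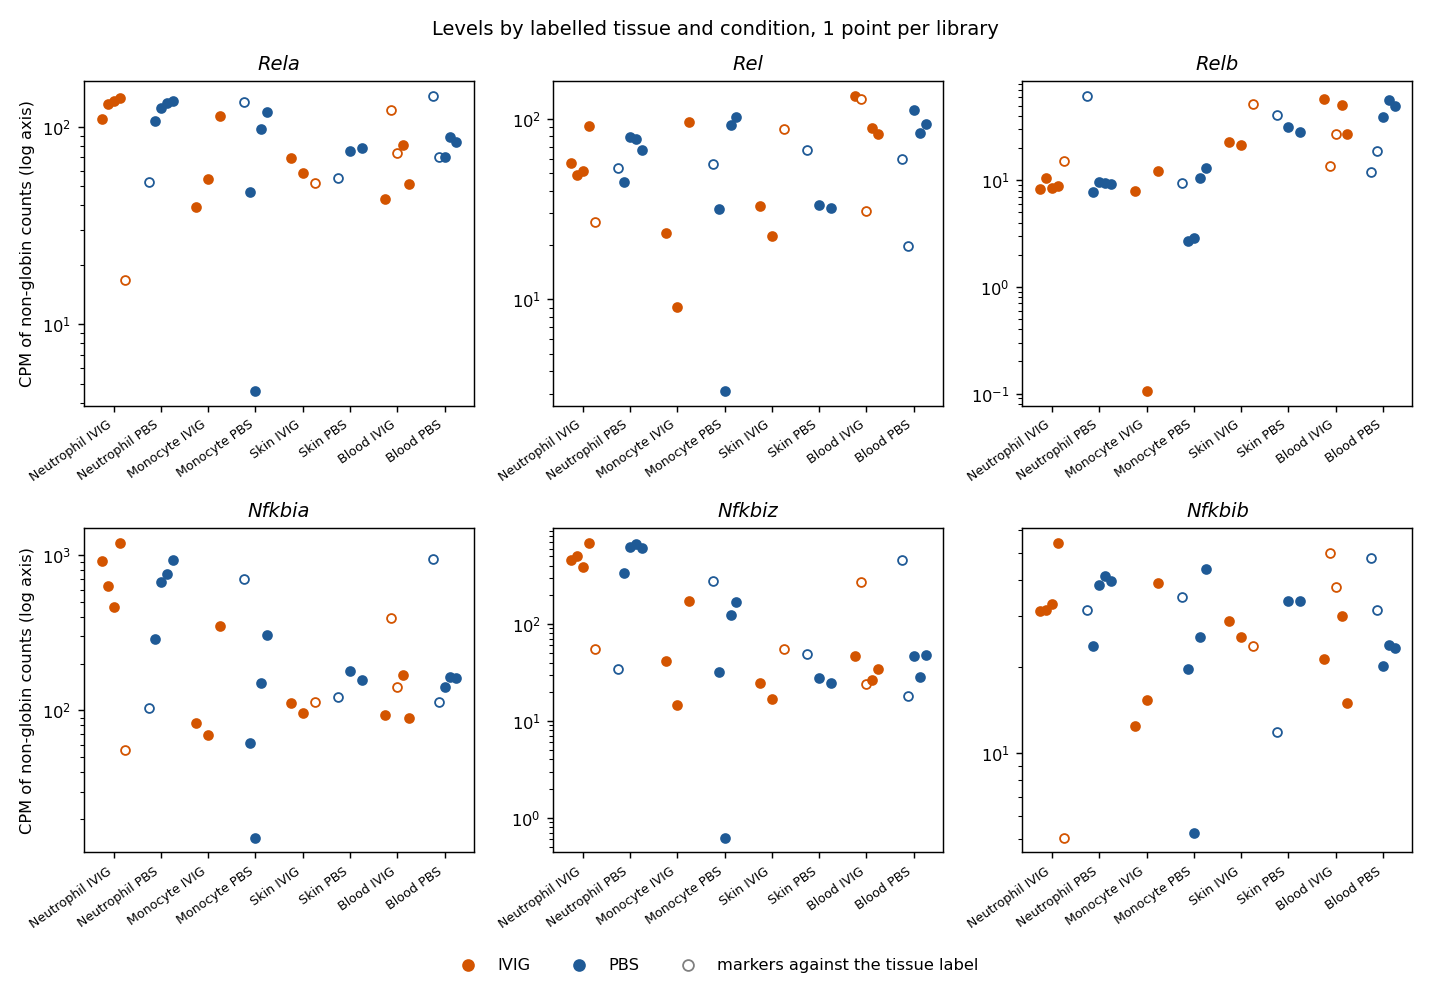
CPM over non-globin counts (log axes) of 6 members in the libraries labelled Neutrophil, Monocyte, Skin and Blood, by condition, 1 point per library, with open points for libraries whose markers go against their tissue label. Filled Neutrophil points of Nfkbia (288 to 1204 CPM) and Nfkbiz (333 to 688 CPM) stand above the filled Skin points (96.9 to 180 and 17.0 to 27.8 CPM), and filled Relb points are lower in Neutrophil (7.74 to 10.6 CPM) than in Skin (21.4 to 31.7 CPM).

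Nfkbiz had a lowest value of 34.2, a median of 475 and a highest of 688 CPM in the Neutrophil libraries, 0.62, 81.9 and 280 CPM in the Monocyte libraries and 17.0, 26.3 and 55.4 CPM in the Skin libraries. Where markers matched the label it had 333, 553 and 688 CPM in Neutrophil, 0.62, 41.3 and 174 CPM in Monocyte and 17.0, 24.6 and 27.8 CPM in Skin. Neutrophil then stood above both other tissues without overlap. For these in vivo levels of Nfkbia and Nfkbiz, how many of all genes separate without overlap was not counted. The Monocyte libraries were uneven for every member, and the lowest for Nfkbiz, labelled Monocyte PBS, had 8984 genes with at least 5 counts, against 11002 to 16950 in the other 7. That library was the lowest for Nfkbia too, and its monocyte marker Csf1r, at 25.4 CPM, was below the other 7. A match to the Monocyte label required no monocyte marker.

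The test compared the mean of the IVIG and PBS groups of one tissue with that of the other. The tissues differ in the series named in the titles: 7 of 10 Neutrophil libraries are of series S3 and 2 of S5, 3 of 8 Monocyte libraries are of S3 and 4 of S5, and all 6 Skin libraries are of S5. Of 16 combinations of series and number in these tissues 7 have more than 1 library, and 3 (Blood included) carry both IVIG and PBS. Within series S3, where markers match the label, Nfkbia had 465 to 1204 CPM in 6 Neutrophil libraries against 150 to 351 CPM in 3 Monocyte libraries, and Nfkbiz 383 to 688 CPM against 123 to 174 CPM, with no overlap. The share of all genes that separate in this way was not counted. Within S5, 1 Neutrophil library had 915 CPM of Nfkbia and 453 CPM of Nfkbiz, against 61.4 to 82.4 and 14.7 to 41.3 CPM in 3 Monocyte libraries and 96.9 to 180 and 17.0 to 27.8 CPM in 4 Skin libraries. In Neutrophil against Monocyte libraries as labelled, 2 of 10 members were higher and 0 lower, where 5.88% of 18573 genes tested were called higher and 2.48% lower. Nfkbiz was higher by 2.38 ± 0.682 on the log2 scale (edgeR adjusted p = 0.0329) and Nfkbia by 1.69 ± 0.531 (edgeR adjusted p = 0.0498). The call for Nfkbia was lost when 1 of 14 of the 18 libraries was left out in turn, and that for Nfkbiz with 4 of them. Without the libraries against their label 4 members were higher (13.6% of genes) and 0 lower (8.45% of genes). The 4 were Nfkbiz, higher by 2.95 ± 0.524 (edgeR adjusted p = 0.000549), Nfkbia by 2.36 ± 0.325 (edgeR adjusted p = 5.71e-05), Rela by 0.93 ± 0.202 (edgeR adjusted p = 0.00276) and Nfkbib by 0.59 ± 0.194 (edgeR adjusted p = 0.0352). Nfkb1 was at -0.03 ± 0.155 (edgeR adjusted p = 0.965) and the other 5 members did not pass either. With the title's series and number as a block 0 members and 17 genes were called, with Nfkbia at 0.68 ± 0.855 and Nfkbiz at 0.98 ± 0.797. That block was fitted as labelled only and leaves out condition. Some Neutrophil libraries that share a series and number with a Monocyte library have blood markers, and in other such pairs both libraries match their labels. The block was not fitted to matching libraries alone, so their result under it is not known. With the title's series as a covariate, chosen after seeing the data, 0 members passed as labelled (Nfkbiz at 2.43 ± 0.755, Nfkbia at 1.72 ± 0.568), and Nfkbiz, Nfkbia and Rela did without the libraries against their label.

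In Neutrophil against Skin libraries as labelled, 3 of 10 members were higher and 0 lower, where 17.5% of genes were called higher and 24.2% lower. These were Nfkbiz, by 3.88 ± 0.805 (edgeR adjusted p = 0.00050), Nfkbia, by 2.50 ± 0.599 (edgeR adjusted p = 0.00183), and Rela, by 1.06 ± 0.350 (edgeR adjusted p = 0.0176). Without the libraries against their label 7 members were higher (24.8% of genes) and 0 lower (32.4% of genes), with Nfkbiz at 4.98 ± 0.735, Nfkbia at 2.92 ± 0.416, Bcl3 at 2.16 ± 0.687, Rel at 1.58 ± 0.429, Rela at 1.33 ± 0.249, Nfkb1 at 1.02 ± 0.191 and Nfkbib at 0.74 ± 0.233. The 3 others, Relb at -1.04 ± 0.583, Nfkbie at -0.17 ± 0.634 and Nfkb2 at 0.12 ± 0.282, did not pass. With the title's series and number as a block 0 members and 1 gene were called, with Nfkbia at 0.83 ± 1.01 and Nfkbiz at 1.71 ± 1.03. The only Neutrophil library that shares its series and number with a Skin library has blood markers. No series and number thus holds matching libraries of both tissues, and the block was not fitted to matching libraries alone. The fit with the title's series as a covariate called Nfkbiz and Nfkbia as labelled, and these with Rela and Nfkb1 without the libraries against their label. RLE size factors move the median of all genes by more than 0.1, to -0.38 from -0.12 under TMM, and change the share of called genes that were higher to 31.3% from 42%. Relative to that median Nfkbia was at 2.61 under TMM and 2.50 under RLE, Nfkbiz at 4.00 and 3.86, and Rela at 1.18 and 1.10, where Rela no longer passed under RLE.

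In Monocyte against Skin libraries as labelled, 0 members were higher and 1 lower, where 13.4% of genes were called higher and 26.2% lower. This was Relb, at -1.92 ± 0.653 (edgeR adjusted p = 0.0224), with 0.11, 8.69 and 12.9 CPM (lowest, median and highest) in Monocyte libraries and 21.4, 30.1 and 51.8 CPM in Skin libraries, 2 of which had blood markers and Relb at 41.2 and 51.8 CPM. Without the libraries against their label Relb was at -1.21 ± 0.605 and did not pass (edgeR adjusted p = 0.107), although every Monocyte library stayed below every Skin library. The share of all genes with such a separation was not counted. Then 3 members were higher (20.4% of genes) and 0 lower (29.8% of genes), with Nfkbiz higher by 2.03 ± 0.627, Rel by 1.06 ± 0.425 and Nfkb1 by 1.05 ± 0.196. Within series S5 these 3 genes overlapped between matching libraries of the 2 tissues. Nfkbiz had 14.7 to 41.3 CPM in 3 Monocyte and 17.0 to 27.8 CPM in 4 Skin libraries. Rel had 9.07 to 31.8 against 22.3 to 33.2 CPM, and Nfkb1 60.9 to 83.2 against 77.2 to 83.5 CPM. The 3 Monocyte libraries of S3 were higher, at 123 to 174, 92.25 to 102 and 163 to 209 CPM for Nfkbiz, Rel and Nfkb1. The 1 of S2 was lower, at 0.62, 3.12 and 30.4 CPM. For this comparison as labelled, RLE size factors put the median of all genes at -0.53, from -0.29 under TMM. The signs of Rel and Nfkbib turn, to -0.27 and -0.08 from 0.06 and 0.17. With the title's series and number as a block, again fitted as labelled only, 0 members and 553 genes were called. The fit with the title's series as a covariate called 0 members as labelled (Relb at -1.68 ± 0.814), and Nfkbiz and Nfkb1 higher without the libraries against their label.

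Within Blood, Relb reached 27.0 to 57.4 CPM in the 6 libraries with blood markers, from 71 to 176 counts in each. It had 7.74 to 10.6 CPM in the 8 Neutrophil and 0.11 to 12.9 CPM in the 7 Monocyte libraries whose markers matched. The 4 matching Skin libraries, at 21.4 to 31.7 CPM, overlapped with Blood. How many of all genes separate Blood from Neutrophil and Monocyte in this way was not counted. The other subunit genes of these 6 Blood libraries were at 76.6 to 149 CPM for Nfkb1, 43.2 to 88.9 CPM for Rela, 81.9 to 134 CPM for Rel and 48.4 to 75.0 CPM for Nfkb2. The 4 libraries against the Blood label set the extremes of several members: Nfkbia had 944 CPM and Nfkbiz 455 CPM in the Blood PBS library with neutrophil markers, and 397 and 269 CPM in the Blood IVIG library of the monocyte class.

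The last question was whether IVIG changed these genes. By edgeR none of the 10 members passed in Blood, Neutrophil, Monocyte or Skin, and 0 genes of any kind did (0.0% called; 81, 73, 286 and 157 genes had an unadjusted p under 0.05, where DESeq2 called 1, 0, 3 and 1 and limma voom 0 in each). Nfkbia was at -0.78 ± 0.641 in Blood, 0.25 ± 0.668 in Neutrophil, -0.51 ± 0.731 in Monocyte and -0.54 ± 0.454 in Skin, where the adjusted p in edgeR was at least 0.9999 in each. Its Skin values were 112, 96.9 and 113 CPM under IVIG and 123, 180 and 157 CPM under PBS, and the highest IVIG library lay below the lowest PBS library, where the 113 and the 123 CPM come from libraries with blood markers. The member with the smallest p was Nfkbia in Blood, Relb in Neutrophil (-0.90 ± 0.681), Nfkbie in Monocyte (0.97 ± 1.10) and Nfkb2 in Skin (-0.79 ± 0.562). The value of Relb rests on the Neutrophil PBS library with blood markers: it had 61.9 CPM there against 7.74 to 9.58 CPM in the other 4, and without that library the log2 change was 0.19.

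Without the libraries against their label 0 members passed in any tissue, where edgeR called 5 genes in Blood (0.0477%), 4 in Skin (0.0236%) and 0 in Neutrophil and Monocyte. Nfkbia was then at -0.24 ± 0.278 in Blood (3 and 3 libraries), 0.27 ± 0.357 in Neutrophil (4 and 4), 0.39 ± 0.485 in Monocyte (3 and 4) and -0.77 ± 0.211 in Skin (2 and 2). In Skin all 10 members were then below 0, with a median of -0.47 beside 0.02 over all genes tested, and Nfkbia had the smallest p (edgeR adjusted p = 0.372). As labelled, 9 members were below 0 in Skin, with a median of -0.11 beside 0.002. The share of all genes below 0 was not counted in either set. Marker levels of these 4 libraries differed too. The 8 skin markers summed to 28180 and 39020 CPM under IVIG and 17440 and 16820 CPM under PBS, the 8 monocyte markers to 1480 and 913 CPM under IVIG and 1663 and 1563 CPM under PBS, and the 10 neutrophil markers to 60.0 and 64.0 CPM under IVIG and 80.3 and 99.7 CPM under PBS, with Ly6g at 0 in 1 library of each. Their part in the Skin values was not tested. A match of tissue markers says nothing of the treatment label, so the directions of these values hold for the condition field as deposited. The labels also conflict in part: a treatment field, not used here, disagrees with the condition field in most libraries. In the in vivo tissues, 3 combinations of series and number in the titles carry both IVIG and PBS.

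**Figure D5:**
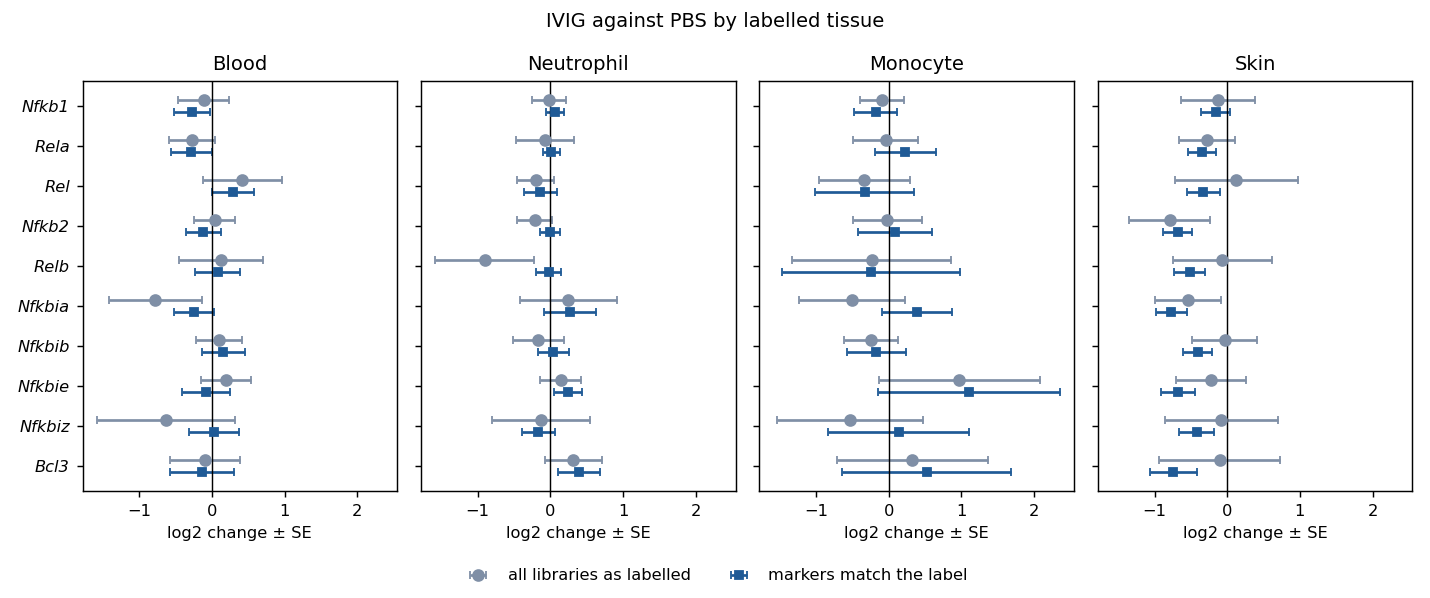
Log2 change of each member with IVIG against PBS (± SE, edgeR) in the libraries labelled Blood, Neutrophil, Monocyte and Skin, with all libraries (grey circles) and without those whose markers go against the label (blue squares). No member passed an adjusted p of 0.05 in either set, and the 10 blue Skin values lie between -0.77 and -0.16.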

How the data were processed

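The authors deposited estimated counts per gene symbol for 46 mouse libraries, scaled for transcript length from abundances (kallisto 0.46.1 and GRCm38, per the submitters' processing notes); no read filter or annotation release is given in the sources used here. The estimated counts were rounded and tested with edgeR 4.0.16 (R 4.3.3) by its quasi-likelihood test, with TMM factors, filterByExpr at a minimum count of 10, Benjamini-Hochberg adjustment over all genes and a limit of 0.05. The Ics groups were fitted together, the Neutrophil, Monocyte and Skin groups together for tissue differences, and IVIG against PBS within each tissue. Alternatives were RLE size factors, DESeq2 1.42.0, limma voom (limma 3.58.1), no filter, replicate blocks, the title's series as a covariate, each library left out and libraries against their label left out. The fitting was tested on simulated data. A library was classed as blood above 10% globin, as skin above 100 CPM of Krt5 plus Krt14, as neutrophil above 10000 CPM of S100a8 plus S100a9, and otherwise as monocyte. Estimated counts come from reads that genes with near-identical copies or antisense partners can share. A treatment field that disagrees with the condition field was not used. Of 77 library pairs within groups 0 held identical values. The members and lists were chosen with earlier results of these data known. Genes named from each list were up to 4 with the smallest p at 3 h against 0 h and up to 2 that fell there; all 10 members were named, and in each IVIG comparison Nfkbia and the member with the smallest p. Values of some genes that this rule or the likeness measure names are not reported here.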

Additional observations from a re-analysis of the deposited data

Results flagged for a closer look

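Of 80 sets of libraries (a member in a group of 4 or 5) 15 had 1 library far from the others by Dixon's criterion, where chance marks about 1 in 20, and 14 of the 15 were in libraries whose markers go against their label. Values here are CPM over all counts, which globin lowers in blood libraries, and TMM CPM for Ics. Neutrophil IVIG replicate 5, which has blood markers, had 0.8067 for Nfkb1 (113 to 131 in the others), 0.2881 for Rela, 0.2305 for Nfkb2 and 0.2593 for Relb. Neutrophil PBS replicate 1, also with blood markers, had 3.389 for Nfkb1 (108.9 to 117.9 in the others), 1.951 for Rela, 2.293 for Relb and 0.445 for Nfkbie. Blood IVIG replicate 2, of the monocyte class, had 128.6 for Rel (4.98 to 31.0 in the others) and 269.3 for Nfkbiz. Blood PBS replicate 1, with neutrophil markers, had 60.07 for Rel, 943.8 for Nfkbia (10.9 to 113.7 in the others), 454.5 for Nfkbiz and 49.56 for Bcl3. The remaining one was Nfkbia in the first Ics library at 0 h, at 171.7 CPM beside 228 to 237 in the other 3.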

How the results depend on the processing

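In the Ics experiment the member counts of 10, 9 and 8 were the same under RLE size factors, DESeq2, limma voom, no filter, the replicate block and each library left out. Between 3 h and 6 h Rela, which was not called, was at -0.001822 under voom and -0.07048 to 0.05415 with a library left out, and Relb at -0.004425 to 0.1145. Same-numbered libraries deviated together more than others (12 correlations of 0.048 to 0.184, 8 of them over 0.1, against -0.098 to 0.017 for 36 pairs of different numbers), so each library correlated best with its own number, a hint from the data and not from the labels. The replicate block gave 8297, 9151 and 6354 genes against 8163, 8999 and 6117. For IVIG against PBS, genes called were 1 in Blood, 3 in Monocyte and 1 in Skin under DESeq2, and 5 in Blood and 4 in Skin without the libraries against their label. With a library left out Nfkbia ran from -1.128 to 0.2265 in Blood, -0.06056 to 0.5288 in Neutrophil and -1.07 to 0.3859 in Monocyte (0.3859 without the library against its label), Relb from -1.12 to 0.1884 in Neutrophil and Nfkbie from -0.1944 to 1.45 in Monocyte. For Neutrophil against Monocyte, members higher were 1 with no filter, 0 with the block by the title's series and number, 4 without libraries against their label and 0 to 2 with a library left out. Genes called there (1553) were 3022 under DESeq2, 3093 under voom, 17 under that block, 4242 without libraries against their label and 413 to 2182 with a library left out. Nfkb1 (0.007494) was at -0.05692 under RLE, -0.05317 under DESeq2, -0.06552 with no filter, -0.2055 under the block, -0.03122 without libraries against their label and -0.0595 to 0.128 with a library left out. Under the block Nfkbia was at 0.6836 and Nfkbiz at 0.9753 (0.8313 and 1.706 against Skin), Rela at -0.07022, Rel at -0.01104, Nfkb2 at -0.1018 and Nfkbie at -0.03898 (-0.03546 to 0.7645 with a library left out). For Neutrophil against Skin, members higher (3) were 7 under voom, 0 under the block, 7 without libraries against their label and 3 to 6 with a library left out, and members lower 0 to 1, the 1 being Relb at -1.563 without Neutrophil PBS replicate 1. Under the block 1 gene was called and Rel was at -0.3558, and Nfkb2 (-0.364) was at 0.02601 under voom and 0.121 without libraries against their label. For Monocyte against Skin, members higher (0) were 1 under voom, 3 without libraries against their label and 0 to 2 with a library left out. Members lower (1) were 2 under DESeq2, 0 under the block, 0 without libraries against their label and 0 to 1 with a library left out. The block called 553 genes. In all 3 tissue comparisons it was fitted as labelled only and leaves out condition. Rel (0.05885) was at -0.265 under RLE, -0.2555 under DESeq2, -0.3448 under the block and -0.3491 to 0.6439 with a library left out, and Nfkbib (0.1657) at -0.07694 under RLE and -0.08122 under DESeq2. With the title's series as a covariate, chosen after seeing the data, as labelled and without libraries against their label, members higher were 0 and 3 for Neutrophil against Monocyte (genes called 977 and 3417, Nfkb1 -0.05773 and -0.1103). For Neutrophil against Skin genes called were 4321 as labelled, Nfkbie was at 0.06714 and 0.3276, and Nfkb2 at 0.06482 in the second set. For Monocyte against Skin members higher were 2 in the second set, members lower 0 and 0, Rel was at -0.2416 as labelled and Nfkbib at -0.02907 in the second set. The cause of these shifts was not tested. Depth limits the blood-marker libraries most, since over 89% of their counts are globin.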

Other observations

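Further genes of the pathway lists are given here, named after their values were seen. Ikbkg, which codes the regulatory IKK subunit NEMO, had 46.2 ± 2.0 CPM at 0 h, 127 ± 14 CPM at 3 h and 400.2 ± 38 CPM at 6 h (SD, n = 4), and it was higher at 6 h than at 3 h by 1.65 ± 0.083 on the log2 scale (edgeR adjusted p = 3.86e-09). Map3k14, which codes NIK, had a mean of 39.8 CPM at 0 h, 37.3 CPM at 3 h and 29.4 CPM at 6 h, and its fall by 0.44 at 6 h against 0 h passed while the 3 h value did not (edgeR adjusted p = 0.371). Among the targets Il10, an anti-inflammatory cytokine gene, had means of 0.13, 3.98 and 7.49 CPM at 0, 3 and 6 h and was higher at 6 h than at 3 h by 0.91 ± 0.272. Nfkbid, a further nuclear IκB gene outside the 10 members, had its highest mean at 3 h, as most members did, with 93.6, 467 and 230 CPM at 0, 3 and 6 h and a rise of 2.32 at 3 h.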
